A study of Mus musculus with 2 samples.

Results

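The genes described here encode 38 enzymes and enzyme subunits of central carbon metabolism: the pyruvate dehydrogenase complex and its kinases, the tricarboxylic acid (TCA) cycle with its cytosolic isozymes, the pentose phosphate pathway, and glutathione synthesis and reduction. They were chosen by symbol and found by gene identifier, and all 38 were present among the 43346 Ensembl gene rows of each library's table. MEL is an immortalized mouse erythroleukemia line in which dimethyl sulfoxide (DMSO) induces hemoglobin synthesis, and the labels present it as the mouse counterpart of the human leukemia line K562. Total RNA was profiled after the cells had been in 2% DMSO for 5 days, a treatment that every library shared. The only group held 2 libraries, replicate 1 and replicate 2. The labels number them as biological replicates yet give both 1 biosample record, so their spread may be technical. Untreated cells were not analysed here, and no value below measures an effect of DMSO.

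Pyruvate dehydrogenase turns pyruvate into acetyl-CoA in mitochondria, and its kinases switch the complex off by phosphorylation. The TCA cycle oxidizes the acetyl group, yields NADH for respiration, and supplies succinyl-CoA, from which heme synthesis starts in erythroid cells. The oxidative branch of the pentose phosphate pathway makes NADPH, the non-oxidative branch returns pentoses to glycolysis, and glutathione reductase spends NADPH to keep glutathione reduced. Inherited defects of glucose-6-phosphate dehydrogenase, and more rarely of the glutathione enzymes, shorten the life of red cells.

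Transcript choice within 3 of these genes can be read from their exons, printed here because the transcript tables split each gene's RNA by whether a transcript holds the exon. The genes were chosen after their transcript values were seen. In each sequence the exon is in capitals, the flanking bases of the neighbouring exons are in lower case, and the letters come from the GENCODE M21 transcripts on GRCm38, the assembly also called mm10. Mdh2, mitochondrial malate dehydrogenase, has an exon of 169 nt at chr5:135783305-135783473 on the plus strand, exon 2 of the 9 of Mdh2-201. Acly, ATP citrate lyase, has an exon of 30 nt at chr11:100503160-100503189 on the minus strand, exon 14 of the 29 of Acly-203. Ogdh, the E1 subunit of 2-oxoglutarate dehydrogenase, has 2 alternative forms of exon 4, one of 103 nt at chr11:6316978-6317080 in Ogdh-201 and one of 91 nt at chr11:6316765-6316855 in Ogdh-202, both on the plus strand.
Mdh2 exon 2: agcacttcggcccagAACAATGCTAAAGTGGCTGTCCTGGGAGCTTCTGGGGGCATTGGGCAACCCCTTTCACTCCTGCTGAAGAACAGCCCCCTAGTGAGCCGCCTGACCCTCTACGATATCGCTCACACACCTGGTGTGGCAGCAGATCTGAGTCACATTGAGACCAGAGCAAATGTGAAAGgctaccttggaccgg
Mdh2 junction without exon 2: agcacttcggcccaggctaccttggaccgg
Acly exon 14: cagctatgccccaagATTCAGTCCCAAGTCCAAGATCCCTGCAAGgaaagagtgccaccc
Acly junction without exon 14: cagctatgccccaaggaaagagtgccaccc
Ogdh exon 4 in Ogdh-201: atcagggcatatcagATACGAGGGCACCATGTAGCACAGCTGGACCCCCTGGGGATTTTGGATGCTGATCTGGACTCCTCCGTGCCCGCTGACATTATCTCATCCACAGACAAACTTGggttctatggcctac
Ogdh exon 4 in Ogdh-202: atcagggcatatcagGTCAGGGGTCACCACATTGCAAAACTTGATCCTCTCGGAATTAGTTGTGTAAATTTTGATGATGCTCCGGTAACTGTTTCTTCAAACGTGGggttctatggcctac

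Levels are given as TPM, a share of all transcripts in a library, a scale that corrects for transcript length and so allows genes to be compared. The libraries held 65109488 estimated counts in replicate 1 and 90856320 in replicate 2. Single members had between 358 and 32428 counts in replicate 1 and between 421 and 36812 in replicate 2, so counting error was small for all but Pdk2, Pcx and Me1. Nuclear protein-coding genes summed to 13.2% of all TPM in replicate 1 and 12.7% in replicate 2. The 38 genes held 0.400% and 0.341% of that protein-coding part. All 10 erythroid markers checked exceeded 1 TPM in each library and together summed to 3547 TPM in replicate 1 and 7267 in replicate 2. No marker of the other lineages checked reached 1 TPM in either library (6 granulocyte and macrophage, 5 lymphoid, 3 mast cell, and 5 stromal and epithelial genes), and each of these lists summed to at most 0.35 TPM. Of 4 megakaryocyte markers, Pf4 was at 34.1 TPM in replicate 1 and 24.7 in replicate 2, and Itga2b at 11.1 and 19.1 TPM. Gp9 was at 0.68 and 0.38 TPM, and Ppbp at 0.

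At 1 TPM or more in both libraries stood 35 of the 38 genes, against 37.2% of the 21461 nuclear protein-coding genes. Pdk2, Pcx and Me1 fell below that level in both. The median level of the 38 genes was 12.4 TPM in replicate 1 and 9.72 in replicate 2, where nuclear protein-coding genes with any signal had medians of 2.17 and 1.93. From the lowest member to the highest, levels spanned 71.2-fold in replicate 1 and 92.9-fold in replicate 2. The order of levels was similar in both libraries, with a Spearman correlation of 0.979 across the 38 genes, which share their libraries and are not independent replicates. When the genes were ordered by mean level, only 6 of the 37 neighbouring pairs had libraries that did not overlap, namely Idh3g above Cs, Dld above Idh3a, Pdk3 above Gclc, Idh1 above Pcx, Pcx above Pdk2 and Pdk2 above Me1. The ranges of the other neighbours overlapped. Within libraries, 18 of the 37 pairs, these 6 included, stood in the same order in both. In bulk RNA, a smaller share of cells expressing a gene and less RNA per cell cannot be told apart.

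**Figure D1:**
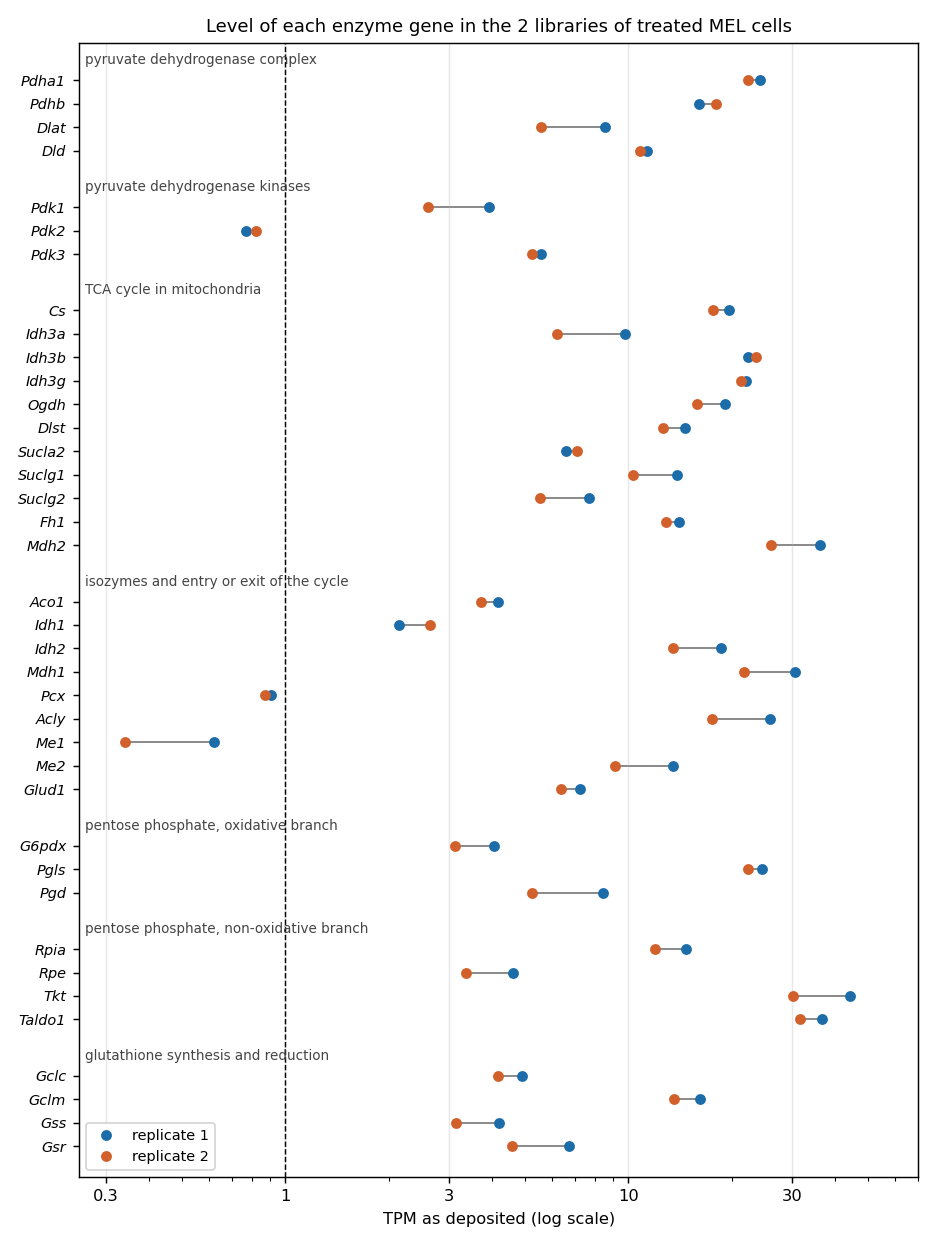
Level of each of the 38 genes as deposited TPM on a log axis, grouped by role; each point is 1 library, a line joins the 2 libraries of a gene, and the dashed line marks 1 TPM. Tkt, Taldo1 and Mdh2 sit at the right, Me1, Pdk2 and Pcx lie left of the dashed line, and replicate 2 is the lower point in 33 of the 38 genes.

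The 4 members that encode parts of the pyruvate dehydrogenase complex were all present, and the order given here covers these 4 only. Pdha1, the alpha subunit of the E1 component that decarboxylates pyruvate, stood at 24.1 TPM in replicate 1 and 22.4 in replicate 2. Pdhb, the beta subunit of E1, was at 16.0 and 18.0 TPM. The alpha subunit was the higher of the pair in both libraries, with a ratio of 1.37 ± 0.186 (SD, n = 2). Dlat, the E2 component that passes the acetyl group to coenzyme A, was at 8.56 and 5.55 TPM. Dld, the E3 component that is shared with other 2-oxoacid dehydrogenases, was at 11.3 and 10.8 TPM. Dlat was the lowest of the 4 genes in both libraries, and its ratio to Dld was 0.637 ± 0.172 (SD, n = 2) over all transcripts and 0.364 ± 0.022 over protein-coding transcripts.

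Among the kinases that inactivate the complex, Pdk3 led. Its level was 5.57 TPM in replicate 1 and 5.23 in replicate 2. Pdk1, a kinase known to be induced by low oxygen, was at 3.91 and 2.61 TPM. Pdk2, widely expressed in other tissues, was at 0.77 and 0.82 TPM, at percentiles 32.8 and 34.2 of nuclear protein-coding genes with any signal. The order Pdk3, Pdk1, Pdk2 was the same in both libraries and their values did not overlap. The ratio of Pdk3 to Pdk1 was 1.71 ± 0.410 (SD, n = 2), and over protein-coding transcripts alone it was 2.89 ± 0.012. Pdk4, a kinase induced by fasting, was listed at 0 in both libraries.

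The mitochondrial TCA cycle held 11 of the members, each at 5 TPM or more in both libraries. Mdh2, which closes the cycle by making oxaloacetate, was the highest of them over all transcripts at 36.2 TPM in replicate 1 and 25.98 in replicate 2. Cs, citrate synthase, which opens the cycle, was at 19.6 and 17.6 TPM. Fh1, fumarase, was at 14.0 and 12.9 TPM. Over all transcripts these enzymes stood in the order Mdh2, Cs, Fh1 in both libraries, without overlap. This order rests on an Mdh2 transcript that is not annotated as protein-coding. Over protein-coding transcripts Mdh2 was at 14.9 and 9.87 TPM, below Cs, Idh3b, Idh3g and Ogdh in both libraries. In replicate 2 it was also below Fh1, at 13.6 and 12.6 TPM in the 2 libraries, and below Dlst and Suclg1.

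The NAD-dependent isocitrate dehydrogenase is built of a catalytic alpha subunit and of beta and gamma subunits. Idh3a, the alpha subunit, was at 9.77 TPM in replicate 1 and 6.19 in replicate 2. Idh3b was at 22.3 and 23.5 TPM, and Idh3g at 22.0 and 21.3 TPM. The beta and gamma subunits were close to each other, with a gamma to beta ratio of 0.945 ± 0.054 (SD, n = 2), and the alpha subunit was well below both. The ratio of Idh3a to Idh3b was 0.437 in replicate 1 and 0.263 in replicate 2, and that of Idh3a to Idh3g was 0.445 and 0.290. Exons of Idh3b share bases with Nop56, a highly expressed gene on the opposite strand with 17015 counts in replicate 1, and whether counting used strand is not given in the sources used here.

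The 2-oxoglutarate dehydrogenase complex makes succinyl-CoA. Its E1 subunit Ogdh was at 19.1 TPM in replicate 1 and 15.8 in replicate 2, and its E2 subunit Dlst was at 14.7 and 12.6 TPM. The ratio of Ogdh to Dlst was 1.28 ± 0.038 (SD, n = 2), so the pair kept nearly the same proportion in both libraries. Succinyl-CoA synthetase uses succinyl-CoA to charge ADP or GDP, depending on its beta subunit. Suclg1, the alpha subunit common to both forms, was at 13.9 and 10.3 TPM. Sucla2, the ADP-forming beta subunit, was at 6.59 and 7.09 TPM, and Suclg2, the GDP-forming one, at 7.69 and 5.51 TPM. Which beta subunit was higher differed between the libraries, with Sucla2 to Suclg2 ratios of 0.857 and 1.29, so the data do not order them.

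The isozymes and side reactions of the cycle covered a wider range than the cycle itself. Idh2, the mitochondrial NADP-dependent isocitrate dehydrogenase, was at 18.6 TPM in replicate 1 and 13.5 in replicate 2. Idh1, its cytosolic and peroxisomal counterpart, was at 2.14 and 2.64 TPM. The mitochondrial form was the higher in both libraries, 8.70-fold in replicate 1 and 5.10-fold in replicate 2, and over protein-coding transcripts alone the ratio was 4.69 ± 1.25 (SD, n = 2). Mdh1, the cytosolic malate dehydrogenase of the malate-aspartate shuttle, was at 30.7 and 21.8 TPM. The ratio of Mdh2 to Mdh1 was 1.19 ± 0.010 (SD, n = 2) over all transcripts but 0.486 ± 0.033 over protein-coding transcripts, which reverses the order of the pair. Aco1, the cytosolic aconitase that doubles as the iron-sensing protein IRP1, was at 4.17 and 3.71 TPM.

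Citrate that leaves mitochondria is split by Acly, which supplies cytosolic acetyl-CoA for lipid synthesis and histone acetylation. Acly stood at 25.8 TPM in replicate 1 and 17.6 in replicate 2. It was above Cs in replicate 1, with a ratio of 1.32, and level with it in replicate 2, with a ratio of 0.997. Of the malic enzymes, which turn malate into pyruvate, Me2 of mitochondria was at 13.5 and 9.15 TPM. Me1, the NADP-dependent cytosolic form, was the lowest of all 38 genes at 0.62 and 0.34 TPM. The ratio of Me2 to Me1 was 21.8 and 26.9, the widest of the 21 ratios computed. Pcx, pyruvate carboxylase, which refills the cycle with oxaloacetate, was at 0.91 and 0.87 TPM. Glud1, glutamate dehydrogenase, through which glutamate enters the cycle, was at 7.24 and 6.34 TPM.

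In the pentose phosphate pathway, the non-oxidative enzymes Tkt and Taldo1 held the highest levels. Tkt, transketolase, at chr14:30548359-30574720 on the plus strand, stood at 44.1 TPM in replicate 1 and 30.2 in replicate 2. Taldo1, transaldolase, was at 36.8 and 31.6 TPM. These were the 2 highest of the 38 genes by mean level, and they exchanged ranks between the libraries, with Tkt to Taldo1 ratios of 1.20 and 0.956. Rpia, ribose-5-phosphate isomerase, was at 14.8 and 11.9 TPM, and Rpe, ribulose-phosphate 3-epimerase, at 4.62 and 3.35 TPM. The isomerase exceeded the epimerase in both, with a ratio of 3.37 ± 0.256 (SD, n = 2).

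The oxidative branch was uneven. G6pdx, glucose-6-phosphate dehydrogenase, the enzyme that commits glucose-6-phosphate to the pathway, was at 4.05 TPM in replicate 1 and 3.13 in replicate 2. Pgls, the lactonase that follows it, was at 24.6 and 22.3 TPM, above both dehydrogenases in each library. Pgd, 6-phosphogluconate dehydrogenase, the second NADPH-producing step, was at 8.45 and 5.25 TPM. G6pdx was the lower of the dehydrogenases in both libraries, with a ratio to Pgd of 0.538 ± 0.083 (SD, n = 2).

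In glutathione synthesis, glutamate-cysteine ligase performs the rate-limiting step with a catalytic subunit, Gclc, and a modifier subunit, Gclm. Gclc was at 4.88 TPM in replicate 1 and 4.17 in replicate 2, and Gclm at 16.1 and 13.6 TPM. The modifier subunit was the higher in both, and the ratio of Gclc to Gclm was 0.305 ± 0.003 (SD, n = 2). Gss, glutathione synthetase, which adds the last amino acid, was at 4.20 and 3.14 TPM. Gsr, glutathione reductase, was at 6.71 and 4.58 TPM. Over all transcripts, the catalytic subunit, the synthetase and the reductase thus all stood below Gclm in both libraries. This order and the Gclc to Gclm ratio rest largely on reads assigned to short Gclm transcripts, led by Gclm-206, of 1002 nt, at 6.91 and 5.81 TPM. Gclm-201, of 4841 nt, held 49.3% and 53.9% of Gclm counts. It was at 1.99 and 1.94 TPM, below Gclc, Gss and Gsr in both libraries.

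**Figure D2:**
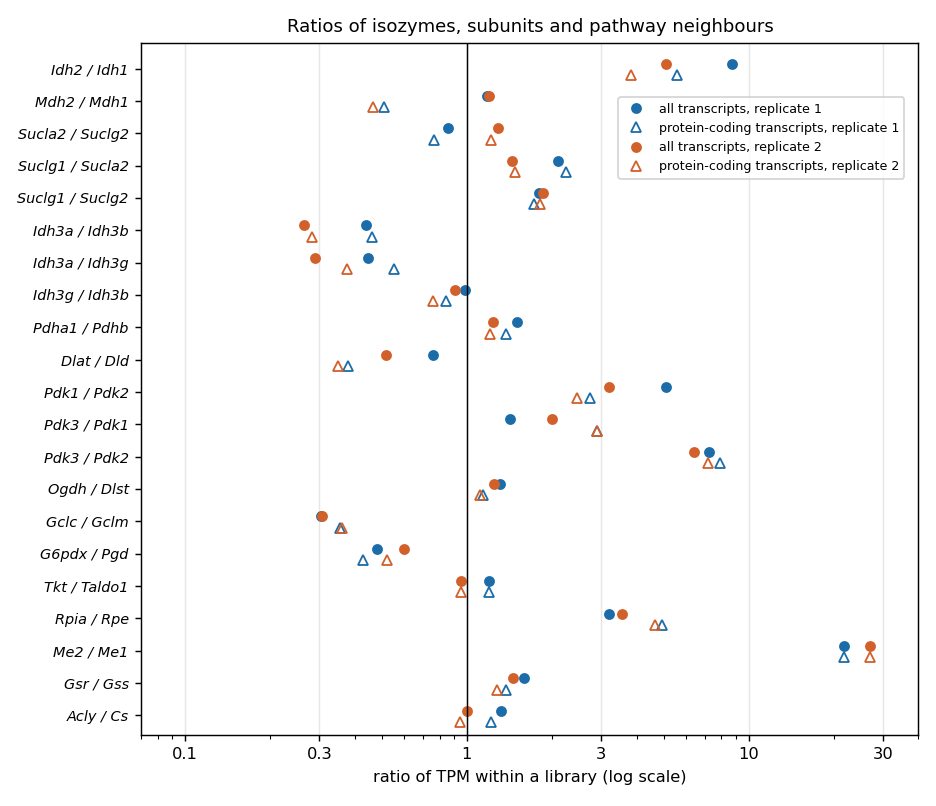
Ratios of TPM between isozymes, subunits and pathway neighbours within each library, on a log axis with a line at 1; filled circles use all transcripts of a gene and open triangles only transcripts annotated as protein-coding. Me2 to Me1 is the widest ratio at 21.8 and 26.9, and the triangles of Mdh2 to Mdh1 lie left of the line at 1 while its circles lie right of it.

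The transcript tables show which RNAs of each gene made up these levels. Of the 38 genes, 30 had several annotated transcripts and 8 had 1. Among the 27 of those 30 genes at 1 TPM or more in both libraries, the same transcript led in both libraries in all 27. In 10 of them the leading transcript held at least 90% of the gene's TPM in both libraries, and in 3 (Mdh2, Sucla2 and Gclm) it held under 60% in both. The leading transcript was annotated as protein-coding in 37 of the 38 genes, with Mdh2 as the exception.

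Mdh2 RNA was split between a protein-coding transcript and one annotated as a target of nonsense-mediated decay, the pathway that degrades RNAs whose reading frame ends early. Mdh2-203, the decay-annotated form, held 56.0% of the gene's TPM in replicate 1 and 59.7% in replicate 2. Mdh2-201, the protein-coding form, held 41.2% and 37.99%. The forms differ by the 169-nt exon printed above, whose length is not a multiple of 3, and Mdh2-203, of 1112 nt, is a net 175 nt shorter outside that exon than Mdh2-201, of 1456 nt. The annotated coding length is 1014 nt with the exon and 153 nt in the transcript that skips it. By TPM of the transcripts that hold or skip the exon, inclusion was 43.5% in replicate 1 and 39.7% in replicate 2 (41.6% ± 2.65, SD, n = 2), so the skipping form was the larger in both libraries. Assigned counts were 4678 and 5911 for Mdh2-203 and 4674 and 5120 for Mdh2-201. By counts the forms were thus nearly level in replicate 1. Such a split rests on the authors' assignment of reads between transcripts that share most of their sequence, and junction reads were not used here.

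Acly and Ogdh had alternative exons whose forms are all annotated as protein-coding. Inclusion of the 30-nt Acly exon was 74.8% in replicate 1 and 64.0% in replicate 2 (69.4% ± 7.66, SD, n = 2), and the coding length is 3303 nt with it and 3273 nt without it. The form with the exon was the larger in both libraries. Acly-203, of 4426 nt, is a net 234 nt longer outside this exon than Acly-207, of 4162 nt, which lacks it. The split may therefore rest on bases outside the exon, and for Acly and Ogdh too junction reads were not used. For Ogdh, the 103-nt form of exon 4 made up 84.1% and 83.4% and the 91-nt form 15.9% and 16.6% of the transcripts that hold either, with coding lengths of 3069 and 3057 nt. This proportion differed by an SD of only 0.496 percentage points between the libraries.

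Several other members carried large shares of short or intron-retaining transcripts. Idh2-206, a 485-nt transcript with a retained intron, held 25.0% of Idh2 TPM in replicate 1 and 17.3% in replicate 2. Mdh1-202, of 549 nt, held 37.9% and 25.1% of Mdh1 TPM but only 11.5% and 6.35% of its counts. Gclm-206, of 1002 nt, led Gclm with 42.9% and 42.8% of TPM, while Gclm-201, of 4841 nt, held 12.4% and 14.3% of TPM and 49.3% and 53.9% of counts. In these genes the TPM share therefore gives short transcripts more weight than the count share does. Sucla2 was divided between 2 protein-coding transcripts, with 46.8% and 52.6% for Sucla2-201 and 42.8% and 42.3% for Sucla2-203. Fh1-205, of 542 nt, held 20.8% and 26.1% of Fh1 TPM.

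Protein-coding transcripts held a median of 91.3% of TPM in replicate 1 and 93.7% in replicate 2 over the 27 genes. Over all 6058 expressed nuclear protein-coding genes with several transcripts the medians were 86.3% and 88.8%. The share was larger in replicate 2 in 22 of the 27 genes and smaller in 4, against 57.9% and 24.6% of the 6058 genes. The lowest shares belonged to Mdh2, at 41.2% and 37.99%, and then to Pdk1, at 48.5% and 68.7%, Dlat, at 50.1% and 67.6%, and Rpe, at 59.4% and 73.7%. Of these 4 genes, Mdh2 alone had the smaller share in replicate 2. Differences in these shares between the libraries were not tested.

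**Figure D3:**
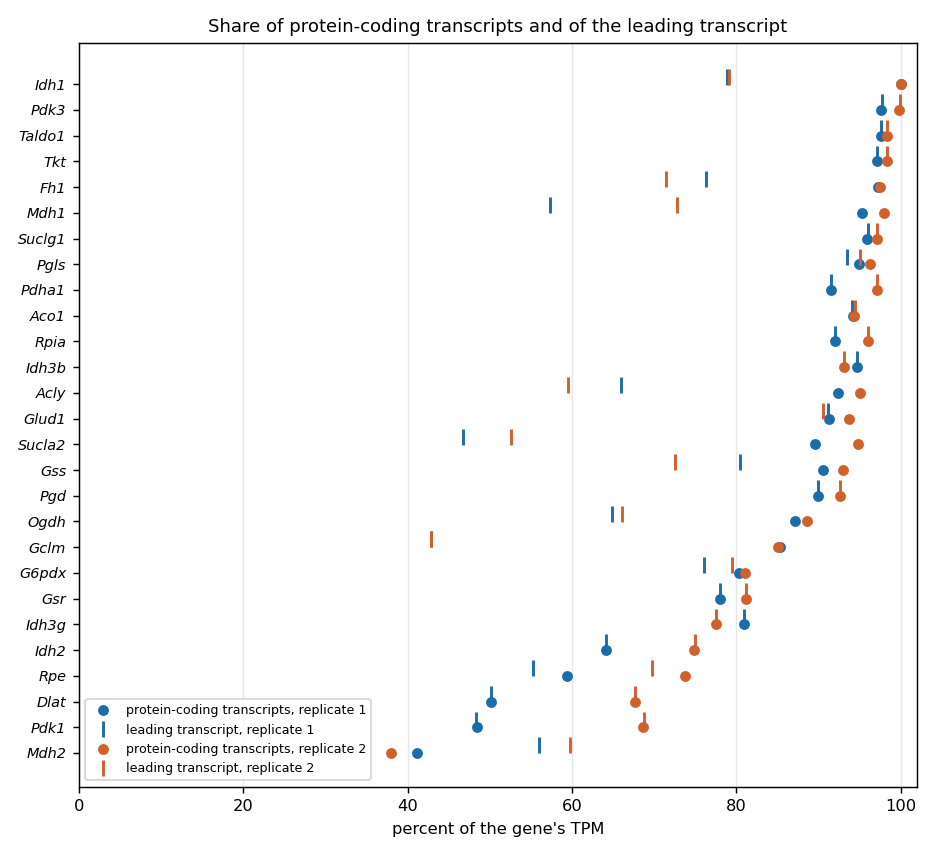
Percent of each gene's TPM held by protein-coding transcripts (circles) and by the leading transcript (vertical marks) in each library, for the 27 members with several transcripts and 1 TPM or more in both libraries. Mdh2 is the only gene whose circles lie visibly left of its marks; its leading transcript is not annotated as protein-coding.

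The libraries were then compared gene by gene with an exact two-sided binomial test on counts scaled by TMM, adjusted by the Benjamini-Hochberg method over all 15275 genes with at least 10 counts in a library. Because both libraries are of the same condition, the test speaks only of their reads, and it covers counting error only. None of the 38 genes differed by 2-fold or more at an adjusted p under 0.05, where 6.49% of all genes tested did. With the adjusted p alone, 18 of the 38 genes (47.4%) were higher in replicate 2, against a background of 31.5%, and 12 (31.6%) were lower, against a background of 30.5%. The other 8 did not pass. Among the 9535 nuclear protein-coding genes with 300 or more counts in a library, a depth closer to that of the members, 2.05% differed by 2-fold, 42.1% were higher and 34.4% lower with the adjusted p alone, so the members' shares were near those of genes of similar depth. At an unadjusted p under 0.05 the count was 30 of the 38 genes and 9866 (64.6%) of all genes. The split of directions depends on scaling: scaled to the total of nuclear protein-coding genes, 9 were higher and 18 lower, beside 22.7% and 39.97% of all genes, and the median log2 ratio of all genes moved from -0.004 to -0.10. At this depth, small differences pass the adjusted p alone, so sizes are given below.

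Differences between the libraries were small in these genes. The median log2 ratio of replicate 2 to replicate 1 was 0.04 over the 38 genes and -0.004 over all genes tested. The median absolute log2 ratio was 0.17, against 0.28 over all genes tested and 0.21 over the nuclear protein-coding genes with 300 or more counts in a library. By group, median log2 ratios were 0.23 for the pyruvate dehydrogenase complex, 0.21 for its kinases, 0.06 for the mitochondrial cycle, 0.03 for the isozymes and side reactions, -0.06 for the oxidative and 0.01 for the non-oxidative pentose phosphate branch, and -0.03 for the glutathione enzymes. The signs of the middle groups depend on scaling: with the nuclear protein-coding total the mitochondrial cycle was at -0.04, the isozymes and side reactions at -0.07 and the non-oxidative branch at -0.09 (these last groups were also below 0 by total counts, at -0.005 and -0.02), while the complex at 0.12 and its kinases at 0.11 stayed above 0. As differences in log2(TPM + 1), the medians of all 7 groups were negative, from -0.08 for the complex and its kinases to -0.33 for the non-oxidative branch. With the adjusted p alone, 31.5% of all genes tested were higher in replicate 2 and 30.5% lower. Among nuclear protein-coding genes with 300 or more counts in a library the shares were 42.1% and 34.4%. No group was tested against any of these shares. By TMM and the adjusted p alone, 3 of the 4 complex genes and 2 of the 3 kinases were higher in replicate 2 and none was lower. In the mitochondrial cycle 6 of 11 genes were higher and 4 lower, and among the isozymes and side reactions 4 of 9 were higher and 4 lower. Of the 3 oxidative pentose phosphate genes 1 was higher and 1 lower, as in the 4 genes of the non-oxidative branch, and of the 4 glutathione genes 1 was higher and 2 were lower.

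**Figure D4:**
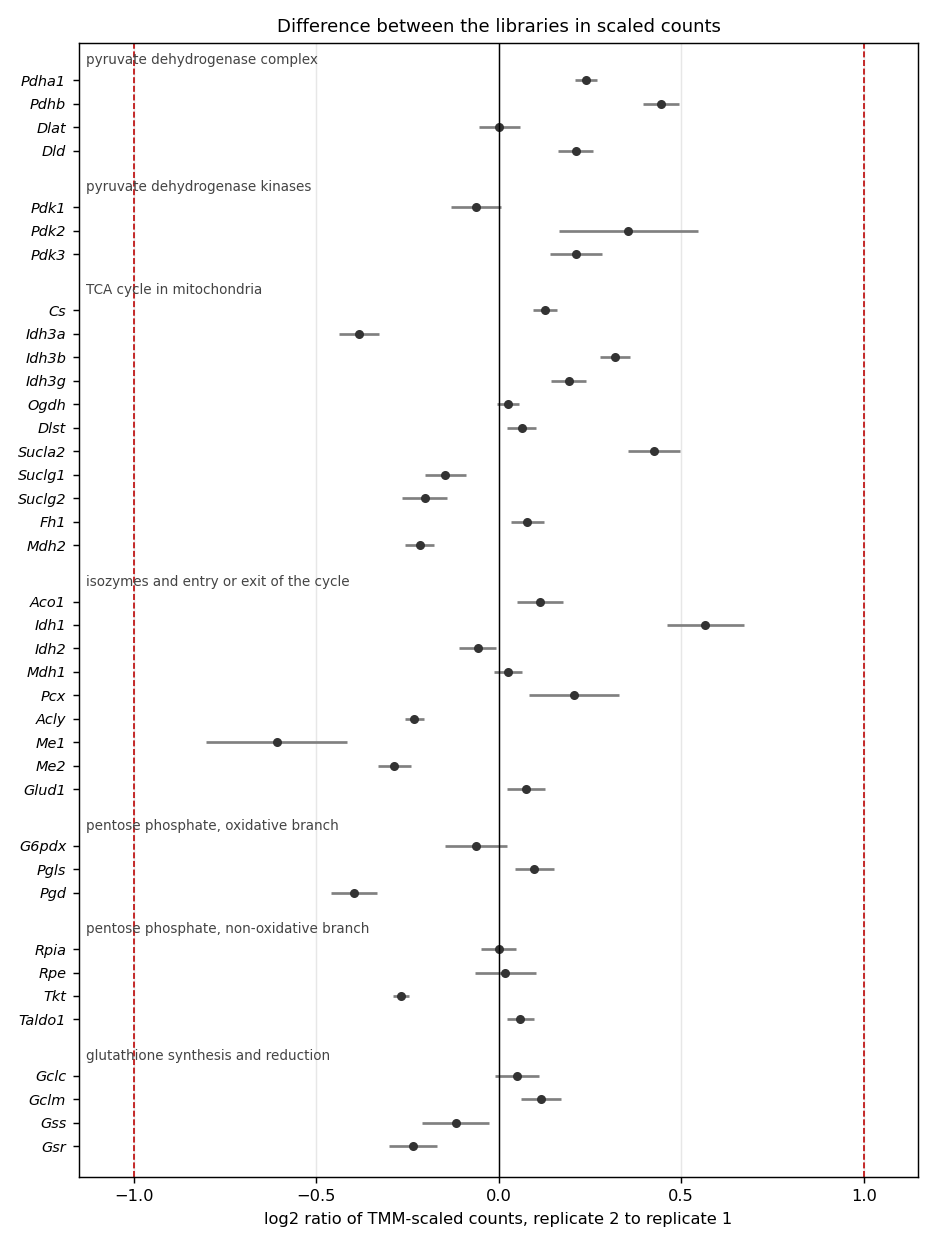
Log2 ratio of TMM-scaled counts in replicate 2 to replicate 1 for each of the 38 genes, with exact 95% intervals that cover counting error only; red dashed lines mark 2-fold in each direction. Idh1 at 0.57 and Me1 at -0.61 are the extremes, and no gene reaches a dashed line.

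The extremes on either side were both cytosolic NADP-linked enzymes. Idh1 (chr1:65158616-65186500, minus strand) had 1107 counts in replicate 1 and 2238 in replicate 2, and its log2 ratio was 0.57 with an exact 95% interval of 0.46 to 0.67 (exact binomial test, Benjamini-Hochberg adjusted p = 1.14e-26). Me1 (chr9:86581371-86695953, minus strand) had 470 and 421 counts, and its log2 ratio was -0.61 with an interval of -0.80 to -0.42 (adjusted p = 1.33e-09, same exact test). Idh1 was thus higher and Me1 lower in replicate 2 by TPM as well. After Idh1, the largest positive log2 ratios were 0.44 for Pdhb, 0.42 for Sucla2, 0.35 for Pdk2 and 0.32 for Idh3b. These 5 genes were also the only members with a higher TPM in replicate 2. After Me1, the largest negative log2 ratios were -0.40 for Pgd, -0.38 for Idh3a, -0.29 for Me2, -0.27 for Tkt and -0.23 for both Gsr and Acly. Each of the genes named in this comparison passed the adjusted p alone and kept its sign under TMM, DESeq2, total-count and nuclear protein-coding scaling.

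Subunits of NAD-dependent isocitrate dehydrogenase and of succinyl-CoA synthetase differed in opposite directions. Idh3a was lower in replicate 2, at a log2 ratio of -0.38, while Idh3b at 0.32 and Idh3g at 0.19 were higher. Sucla2, at 0.42, was higher, while its partner Suclg1 at -0.15 and the alternative subunit Suclg2 at -0.20 were lower. For glutamate-cysteine ligase the signs were the same by TMM: Gclm was higher at 0.12, and Gclc at 0.05 did not pass the adjusted p. Scaled to the nuclear protein-coding total, the signs differed, with Gclm at 0.02 and Gclc at -0.05. In the pyruvate dehydrogenase complex, Pdha1 at 0.24, Pdhb at 0.44 and Dld at 0.21 were higher by TMM, and Dlat at 0.00 did not pass. Scaled to the nuclear protein-coding total, Dlat was lower at -0.098 (same exact test, adjusted p = 0.00105). Pdha1 at 0.14, Pdhb at 0.34 and Dld at 0.11 stayed above 0 there. The differences between such subunits were not themselves tested.

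By TPM the picture of the libraries was another. There 33 of the 38 genes (86.8%) were lower in replicate 2, where 76.0% of nuclear protein-coding genes tested were lower. The median difference in log2(TPM + 1) was -0.25 for the members and -0.13 over those genes. Over nuclear protein-coding genes with 300 or more counts in a library, a depth closer to that of the members, it was -0.19. By scaled counts 23 of the 38 were higher and 15 (39.5%) lower, where 47.9% of nuclear protein-coding genes were lower. With TPM rescaled to nuclear protein-coding genes, 6 of the 38 were higher in replicate 2, and over protein-coding transcripts alone 33 were lower. No share over other genes is given for these last counts, so they do not set the members apart. Of the RNAs that make up TPM, the share of protein-coding transcripts within these genes was larger in replicate 2, as given above, and its part in the result was not tested. Erythroid markers were higher in replicate 2 by scaled counts, with a median log2 ratio of 1.06 over 10 genes. Of these, Alas2, Hba-a1, Hbb-bs, Epb42 and Slc4a1 differed by 2-fold or more, where 6.49% of all genes tested did in either direction. Among megakaryocyte markers, Itga2b was also higher by 2-fold or more, with a log2 ratio of 1.12. Pf4 at -0.20 and Gp9 at -0.57 were lower. The part of these markers in the differences was likewise not tested.

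Reads of overlapping genes limit 8 of the members. Exons of Pdha1, Idh3b, Mdh1, G6pdx, Rpe, Gclm and Gss share bases with a gene on the opposite strand that had 100 or more counts in a library, and exons of Pgls share bases with Fam129c on its own strand. For G6pdx the partner, Ikbkg, had 2526 counts in replicate 1 and 3722 in replicate 2, more than the 1984 and 2597 of G6pdx itself. For Gclm the partner Gm17494 had 2727 and 1747 counts. How reads in the shared bases were divided cannot be read from the tables.

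Neighbouring enzymes of the same pathways were drawn from 4 further lists. Of 21 other genes of pyruvate entry and the TCA cycle, 14 reached 1 TPM in both libraries, and none of the 17 tested differed by 2-fold. The succinate dehydrogenase subunit Sdhd was at 34.0 TPM in replicate 1 and 29.0 in replicate 2, and Sdhb at 32.4 and 24.6 TPM. Sdha, the flavoprotein of the same complex, was at 22.0 and 18.9 TPM, and Mpc1, of the mitochondrial pyruvate carrier, at 14.4 and 11.7 TPM. The succinate dehydrogenase subunits named here thus lay in the upper range of the members. They were named for their high mean TPM within the list, so this does not speak for every subunit. Of the 17 tested, 6 were higher and 6 lower in replicate 2 with the adjusted p alone, beside 31.5% and 30.5% of all genes tested. Of 10 other pentose phosphate genes, 3 reached 1 TPM in both, led by Prps1, which makes phosphoribosyl pyrophosphate, at 11.4 and 7.55 TPM, and none of the 5 tested differed by 2-fold. With the adjusted p alone 2 of these 5 were higher and 3 lower.

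Of 28 genes that use or turn over glutathione, 18 reached 1 TPM in both libraries. Gpx1, a selenium-dependent glutathione peroxidase abundant in red cells, was at 133 TPM in replicate 1 and 183 in replicate 2. Gpx4, which reduces lipid peroxides, was at 78.9 and 71.3 TPM, and Glrx5, a glutaredoxin of iron-sulfur cluster assembly, at 40.5 and 48.0 TPM. These levels were above those of all 4 glutathione synthesis and reduction genes. Of the 24 tested, 4 were higher in replicate 2 by 2-fold or more under every scaling, and none was lower by TMM (1, Ggct, was lower when scaled to the nuclear protein-coding total): Chac1, which degrades glutathione, with a log2 ratio of 1.76, Slc7a11, the cystine transporter that supplies cysteine for glutathione, with 1.65, and the glutathione transferases Gstt1, with 1.30, and Mgst3, with 1.21. Slc7a11 was below 1 TPM in both libraries, at 0.32 in replicate 1 and 0.82 in replicate 2. Chac1 was at 1.11 and 3.11 TPM, Gstt1 at 3.04 and 6.23, and Mgst3 at 15.9 and 30.6. By TMM, 6.49% of all genes tested differed by 2-fold or more in either direction. With the adjusted p alone 12 of the 24 were higher and 6 lower, beside 31.5% and 30.5% of all genes tested. Of 10 genes of glutamine, glutamate and aspartate metabolism, 9 reached 1 TPM in both and none differed by 2-fold, while 2 were higher and 4 lower with the adjusted p alone. Asns, asparagine synthetase, led them at 71.7 and 95.5 TPM, followed by Got2, the mitochondrial aspartate aminotransferase, at 21.5 and 16.1 TPM.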

How the data were processed

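Total RNA libraries of 1 group were compared with each other; no other group was analysed. The authors deposited, per the file headers, tables of genes and of transcripts with estimated counts, TPM, FPKM, posterior mean counts and the percent of a gene's TPM held by each transcript. Per the readme deposited with each sample, they used mm10 and GENCODE M4; neither aligner nor program nor strand setting is named in the sources used here. FPKM as deposited by the authors served only as an alternative to TPM. TPM as deposited by the authors includes tRNA and spike-in rows. The percent values as deposited by the authors gave the transcript shares.

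Gene names, coordinates (1-based) and transcripts came from GENCODE M21 on GRCm38, the assembly of mm10; 42462 of 43346 Ensembl rows matched by identifier without version, and all 162 transcripts of the members. Nuclear protein-coding genes exclude those of the mitochondrial genome. Estimated counts were rounded and scaled with TMM in edgeR 4.0.16 (R 4.3.3). Genes reaching 10 counts in either library were tested with the exact two-sided binomial test, Benjamini-Hochberg adjusted and called at 2-fold and an adjusted p under 0.05, and log2 ratios used a pseudocount of 0.5 with exact Clopper-Pearson 95% intervals. The procedure was tested on simulated data. As the reads carry no molecular identifiers, they may repeat molecules, and intervals and floors cover counting error alone. The floor for a count of 0, 3 counts, was 0.0461 CPM (replicate 1) and 0.0330 CPM (replicate 2). The libraries differed by a chi-square of 258 per degree of freedom over genes, so they were counted as 2 samples. Posterior standard deviations, as deposited by the authors, were at most 0.684% of a member's count. Inclusion of an exon is the TPM of transcripts that hold it, divided by that of transcripts that hold or skip it.

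The members, pathway lists, enzyme pairs and tests were chosen with earlier results of these data known. Named genes are all 38 members, up to 5 genes per further list with the highest mean TPM, any gene of those lists called different, and the markers; 2 genes of those lists enter the counts but are not reported here. Alternatives were DESeq2 1.42.0 size factors, other scalings, filters, thresholds, pseudocounts and units, each library left out and, added after seeing the data, protein-coding transcripts only.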

Additional observations from a re-analysis of the deposited data

How the results depend on the processing

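No paired analysis was possible because the series has 1 group. The number of members that differ between the libraries was 0 with DESeq2 size factors, total counts, the nuclear protein-coding total, no filter, a minimum of 100 counts and posterior mean counts. It became 1 at a 1.5-fold minimum (Me1, lower in replicate 2) and 30 with the adjusted p alone, since these ask for less. Over all genes the 992 calls became 387 at a minimum of 100 counts, 2464 at a 1.5-fold minimum and 9469 with the adjusted p alone. The members' median log2 ratio of 0.04 became -0.062 when scaled to the nuclear protein-coding total, -0.25 as a difference in log2(TPM + 1), and -0.19 on that scale over protein-coding transcripts, an alternative added after seeing the data; the cause was not tested. Under the nuclear protein-coding total 10 members changed sign (Dlat, Dlst, Mdh1, Ogdh, Glud1, Taldo1, Rpe, Fh1, Pgls and Gclc), each with a log2 ratio under 0.10 in size by TMM. The median TPM of the members, 11.2 over the mean of both libraries, became 86.2 when TPM or FPKM was rescaled so that nuclear protein-coding genes sum to the same total, which follows from the rescaling, and it was 9.72 without replicate 1 and 12.4 without replicate 2. The number at 1 TPM or more in both libraries was 37 at 0.5 TPM, 27 at 5 TPM and 38 after rescaling, and 35 without either library. The leading transcript was the same in both libraries in 20 of 20 genes at 5 TPM. Of the 21 ratios, Mdh2 to Mdh1 changed sides of 1 in both libraries over protein-coding transcripts. For Sucla2 to Suclg2 only the mean did, from 1.07 to 0.994. Its ratios in replicate 1 and replicate 2 were 0.767 and 1.22 over protein-coding transcripts, on the same sides of 1 as over all transcripts. Leaving out a library gives no value for the comparison of libraries. With 2 libraries, the SD of each level is itself poorly known.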
